A study of Mus musculus with 20 samples.

Results

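The report covers 8 genes of small GTPase signalling at synapses: the scaffold gene Cnksr2, the Ras-like GTPase genes Rasl10a, Rasl10b and Rasl11b, the exchange factor genes Rasgrp1, Rasgrp2 and Rasgrf2, and Hras. Members were found as probe sets whose only gene symbol is 1 of these names. This gave 1 probe set each for 7 of the 8 genes, out of 19933 gene symbols and 28767 probe sets in all. No probe set was assigned to Hras alone, so Hras was not analysed here. Cnksr2 and Rasl10a were chosen by the difference of their log2 values between WT stress and WT con, and the other 6 genes were placed beside them as relatives.

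The data are log2 signals of amygdala RNA from 20 male mice, with 1 mouse on each whole-transcript array and 5 mice in each of 4 groups. KO stress and KO con mice were labelled as lacking the serotonin transporter 5-HTT, while WT stress and WT con mice were wild type. All were C57BL/6 (C57BL/6J in the study's methods) descendants of heterozygous 5-HTT knockout parents, housed singly, tested earlier on the elevated plus-maze and labelled with an age of 7 months. Stressed mice spent 1 min in cold water (22 °C), and con mice 1 min in the home cage, before the left and right amygdala were dissected. All mice were anaesthetized with isoflurane and decapitated in between, and the tissue was lysed within minutes of the stressor. The knockout is constitutive rather than limited to the amygdala, and the tissue was taken whole.

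Ras proteins are molecular switches that are on when bound to GTP and off when bound to GDP. Exchange factors load them with GTP, GTPase-activating proteins switch them off, and active Ras feeds the Raf-MEK-ERK kinase cascade. At synapses this switch couples calcium entry and receptor activity to changes in the strength and shape of the contact. Cnksr2 encodes CNK2, a multi-domain scaffold of the postsynaptic density, and disruption of the human gene is known from X-linked epilepsy with intellectual disability. Rasl10a, Rasl10b and Rasl11b encode small GTPases of the Ras family that have been studied far less. Rasgrp1 and Rasgrp2 encode exchange factors that bind diacylglycerol or respond to calcium, known best from lymphocytes (Rasgrp1) and from platelets and striatal neurons (Rasgrp2). Rasgrf2 encodes a calmodulin-regulated exchange factor coupled to glutamate receptors, and Hras encodes one of the classical Ras proteins.

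The probe set of Cnksr2 (gene ID 245684, probe set 10607562) belongs to a gene at chrX:157821430-158044458 in GRCm38.p6. Rasl10a (gene ID 75668, probe set 10374012) lies at chr11:5058128-5060385 and Rasl10b (276952, 10379677) on the same chromosome at chr11:83409137-83421039. Rasl11b (68939, 10522467) lies at chr5:74195326-74199477. Rasgrp1 (19419, 10486061) lies at chr2:117279983-117342877, Rasgrp2 (19395, 10460968) at chr19:6398957-6415216 and Rasgrf2 (19418, 10410995) at chr13:91880407-92131828. Hras (15461) lies at chr7:141189934-141194019. Where within these genes the probes sit was not analysed here.

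The 250 bases before an annotated start are shown for Cnksr2, Rasl10a and Rasgrp1, the 3 genes with the largest stress differences in WT. They come from RefSeq for GRCm38.p6, which held such windows for 7 of the 8 genes (9 windows). Each runs 5′ to 3′ on the strand of the gene. Capitals mark 2 motifs searched on both strands, the GC box GGGCGG, bound by Sp1-type factors, and the short CRE motif TGACG, bound by CREB-type factors. The full CRE TGACGTCA, which contains the short motif, was searched as well.
Cnksr2, chrX:158043198-158043447, minus strand: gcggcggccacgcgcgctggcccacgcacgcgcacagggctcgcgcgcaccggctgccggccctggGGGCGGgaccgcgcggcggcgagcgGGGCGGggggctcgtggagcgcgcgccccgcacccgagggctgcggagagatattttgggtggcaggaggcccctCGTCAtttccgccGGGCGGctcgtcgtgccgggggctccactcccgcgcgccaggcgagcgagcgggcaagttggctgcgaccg
Rasl10a, chr11:5057878-5058127, plus strand: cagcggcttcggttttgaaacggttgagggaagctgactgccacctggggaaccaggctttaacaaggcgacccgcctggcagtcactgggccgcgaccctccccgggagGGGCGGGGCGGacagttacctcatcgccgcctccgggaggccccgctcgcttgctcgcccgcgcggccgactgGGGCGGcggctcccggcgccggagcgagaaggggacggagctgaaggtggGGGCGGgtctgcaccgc
Rasgrp1, chr2:117342878-117343127, minus strand: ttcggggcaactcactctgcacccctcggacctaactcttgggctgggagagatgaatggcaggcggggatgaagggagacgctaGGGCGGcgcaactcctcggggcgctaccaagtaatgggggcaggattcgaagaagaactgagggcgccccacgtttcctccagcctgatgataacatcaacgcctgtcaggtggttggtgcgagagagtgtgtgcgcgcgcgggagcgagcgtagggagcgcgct

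The GC box occurred 3 times in the window of Cnksr2, 4 times in that of Rasl10a and 1 time in that of Rasgrp1. Of all 32851 windows of this length, 32.7% held at least 1. The short CRE motif occurred 1 time in Cnksr2 and was not found in these letters of Rasl10a or Rasgrp1, against 17.8% of all windows. A second, overlapping window of Cnksr2 (chrX:158043281-158043530), before another annotated start, held 4 GC boxes and no TGACG. The full CRE was in none of the 9 member windows and in 1.55% of all windows. The windows were rich in G and C, at 79.6% for Cnksr2, 72.4% for Rasl10a and 62.4% for Rasgrp1, beside a median of 52.4% over all windows. The annotated Cnksr2 gene extends beyond this window on its 5′ side, so that the window stands before 1 of several starts. A letter match describes the sequence and does not show binding.

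Slc6a4, which encodes 5-HTT, had a higher signal in KO than in WT. It averaged 8.28 ± 0.11 (SD, n = 5) in KO stress and 8.16 ± 0.03 in KO con, against 6.39 ± 0.10 in WT stress and 6.62 ± 0.75 in WT con. WT con replicate 5 had 7.82, near the KO arrays, while the other 4 WT con arrays had 5.82 to 6.73. Without that array the WT stress difference was 0.62 for Cnksr2 and 0.39 for Rasgrp1, in both of which it was the lowest WT con array. A higher signal of the targeted gene in KO goes against the direction that the name of the genotype would give. The study itself lists Slc6a4 as higher in KO, in con and after stress, and it identified genotypes by gel electrophoresis of DNA fragments. No source used here places the Slc6a4 probes inside or outside the deleted stretch, so that this signal does not check the labels. The groups are therefore called KO and WT as labelled, and every genotype direction below rests on those labels. Of the tissue markers checked, Gad1 (mean 11.05), Prkcd (9.52), Lmo3 (9.25), Etv1 (9.05) and Slc17a7 (9.0), of inhibitory, central amygdala and excitatory neurons, had clear signal, while Rspo2 (6.16) and Neurod6 (5.73) were low. The arrays least like the rest were the first replicates of WT stress and WT con, with median correlations to the other arrays of 0.961 and 0.978.

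Groups were compared with limma on the 4 group means, and p-values were adjusted over all 28767 probe sets by the Benjamini-Hochberg method. At an adjusted p under 0.05 the share of probe sets called was 0% in KO stress vs con, 0% in WT stress vs con, 0% in con KO vs WT, 0% for the interaction of genotype and stress and 0.00348% in stress KO vs WT, where the only one was Slc6a4. At an unadjusted p under 0.05, probe sets numbered 326, 1019, 1026, 724 and 2670 in that order of comparisons. No member passed an adjusted threshold in any comparison. For single genes the groups were also compared by exact permutation of their 5 and 5 arrays (two-sided), for which 0.00794 is the smallest p possible. In whole tissue, fewer cells of a type and less RNA per cell cannot be told apart.

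The scaffold gene Cnksr2 had log2 values of 11.08, 11.11, 11.41, 11.48 and 11.05 in the 5 WT stress arrays. In the WT con arrays it had 10.85, 10.56, 10.73, 10.29 and 10.20. All 5 WT stress values lay above all 5 WT con values. The means were 11.23 ± 0.20 (SD, n = 5) in WT stress and 10.53 ± 0.28 in WT con, a difference of 0.70 (SE 0.19) on the log2 scale or 1.62-fold. This difference chose the gene and is given without a test.

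In KO mice Cnksr2 showed no such separation. KO stress arrays had 10.92, 10.87, 10.79, 11.31 and 10.53, and KO con arrays had 11.54, 10.99, 10.35, 10.72 and 10.96. The lowest and the highest of these 10 values were both in KO con. The means were 10.88 ± 0.28 in KO stress and 10.91 ± 0.44 in KO con, a difference of -0.03 (SE 0.19, limma p = 0.888, adjusted p = 1.0, exact permutation p = 0.897). The 95% interval ran from -0.42 to 0.37. The stress difference in KO minus that in WT was -0.73 (SE 0.26), a value given without a test because it contains the WT difference.

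Both KO groups lay between the WT groups in their mean level of Cnksr2. KO con exceeded WT con by 0.38 and KO stress was below WT stress, at -0.34 (SE 0.19 each). Of the KO con arrays, 3 were above every WT con array, and 4 of the KO stress arrays were below every WT stress array. The order of mean levels was WT stress, KO con, KO stress and WT con, and the 2 KO groups, adjacent in that order, did not differ beyond their spread.

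The GTPase gene Rasl10a had the largest difference between WT stress and con of the 7 genes and a wide spread. WT stress arrays had 7.29, 6.51, 6.47, 8.46 and 7.96, and WT con arrays had 6.71, 6.08, 6.71, 5.74 and 6.22. Replicates 1, 4 and 5 of WT stress lay above every WT con array, and replicates 2 and 3 lay within the WT con range. The means were 7.34 ± 0.88 (SD, n = 5) and 6.29 ± 0.42, a difference of 1.04 (SE 0.39) or 2.06-fold, which also chose the gene.

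KO arrays were low in Rasl10a with 1 exception. KO stress arrays had 6.17, 6.13, 6.67, 6.84 and 6.26, and KO con arrays had 8.0, 6.21, 6.11, 6.04 and 6.40. The value of 8.0 in KO con replicate 1 was the second highest of all 20 arrays. The difference of KO stress minus con was -0.14 (SE 0.39, limma p = 0.732, adjusted p = 1.0, exact permutation p = 0.865), with a 95% interval from -0.96 to 0.69. It was 0.23 without KO con replicate 1. The difference of the stress effects, KO minus WT, was -1.18 (SE 0.55), and it was -0.81 without that array. KO stress stood at -0.92 relative to WT stress, and KO con at 0.26 relative to WT con (-0.11 without KO con replicate 1).

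Rasl10b and Rasl11b, the other GTPase genes, differed little in mean between groups. Rasl10b was the steadiest gene, with group means of 8.49 in KO stress, 8.48 in KO con, 8.51 in WT stress and 8.49 in WT con and a pooled SD of 0.23. Its stress difference was 0.01 in KO (95% interval -0.29 to 0.31, limma p = 0.938, exact permutation p = 0.937) and 0.03 (SE 0.14) in WT. Rasl11b averaged 7.03 ± 0.14 in KO stress and 7.08 ± 0.45 in KO con, a difference of -0.04 (95% interval -0.46 to 0.37, limma p = 0.822, exact permutation p = 0.96). In WT stress it averaged 7.17 ± 0.40 and in WT con 6.87 ± 0.22, a difference of 0.30 (SE 0.20). Rasl11b reached 7.85 in 2 arrays, KO con replicate 1 and WT stress replicate 4, the same 2 arrays with the highest Rasl10a.

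**Figure D1:**
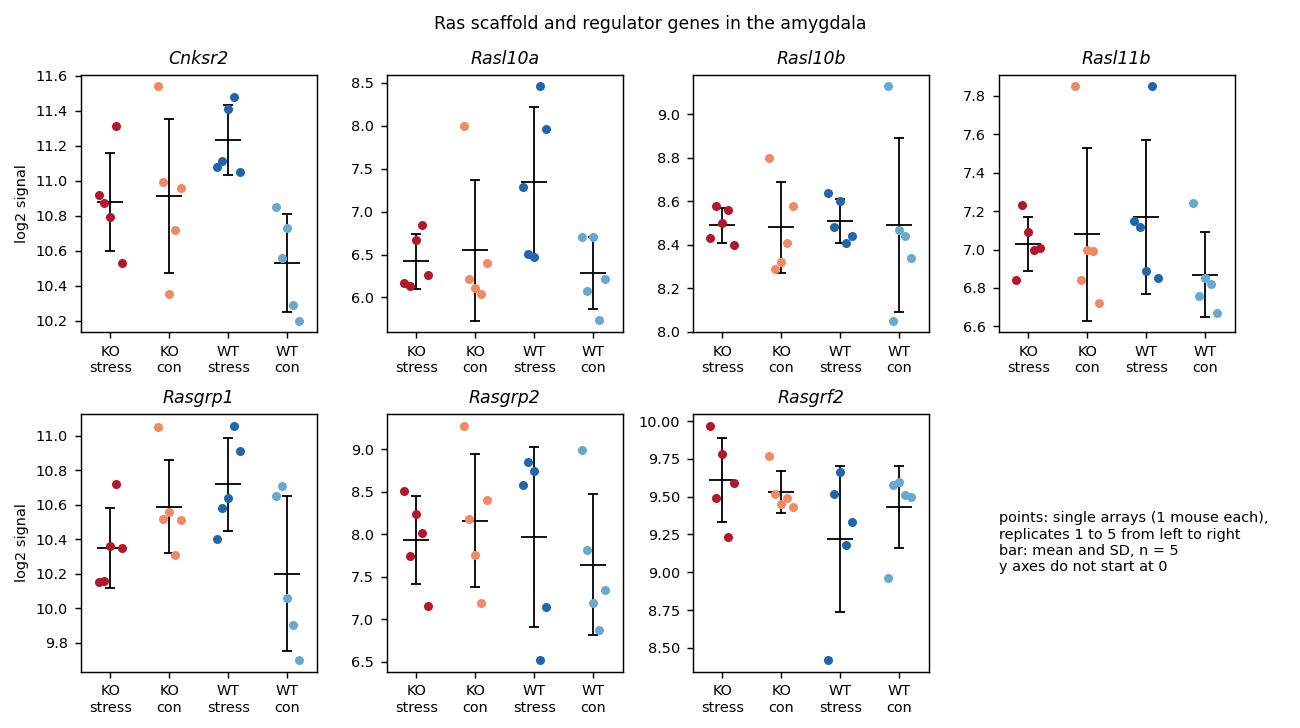
Log2 signal (y axis, not starting at 0) of the 7 measured genes in KO stress, KO con, WT stress and WT con (x axis). Each point is 1 array and each bar a mean ± SD (n = 5). WT stress and WT con do not overlap for Cnksr2, and KO con replicate 1 is the highest KO con array in all 7 panels.

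Rasgrp1, an exchange factor gene, was the nearest member outside the fold criterion of the study. WT stress arrays had 10.40, 10.58, 10.64, 11.06 and 10.91, and WT con arrays had 10.65, 10.71, 10.06, 9.90 and 9.70. Replicates 4 and 5 of WT stress lay above all WT con arrays. The difference was 0.51 (SE 0.19) or 1.43-fold, against a criterion of 1.5 (0.58 on the log2 scale), with Cnksr2 at 0.70 the nearest member inside it. KO stress arrays had 10.15, 10.16, 10.36, 10.72 and 10.35, and KO con arrays had 11.05, 10.52, 10.56, 10.31 and 10.51. Here stress arrays averaged less than con arrays, at -0.24 (SE 0.19, limma p = 0.226, adjusted p = 1.0, exact permutation p = 0.214, 95% interval -0.64 to 0.16), and 2 of them lay below every KO con array.

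Rasgrp1 was the only one of the 5 related genes whose stress difference differed between genotypes at an unadjusted p under 0.05. The difference of KO minus WT was -0.75 (SE 0.27, n = 20 arrays, 95% interval -1.32 to -0.18, limma p = 0.0123, adjusted p = 1.0), and 2.52% of all probe sets reached that threshold in either direction. With each array left out in turn it stayed between -0.88 and -0.63, with p between 0.00325 and 0.0268. This interaction contains the WT stress difference of 0.51. Within groups Rasgrp1 varied with Cnksr2 and Rasl10a (r = 0.61 each), which were chosen on WT stress vs con. Its p is therefore not independent of that choice. In con, KO exceeded WT by 0.38 (95% interval -0.02 to 0.79, limma p = 0.0599, adjusted p = 0.929, exact permutation p = 0.151). After stress, KO was below WT, at -0.37 (95% interval -0.77 to 0.03, limma p = 0.0701, adjusted p = 0.531, exact permutation p = 0.0635), with 4 of 5 KO stress arrays below all WT stress arrays. For the other 4 related genes the interaction had an unadjusted limma p of 0.226 or more.

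Rasgrp2 was the most variable of the 7 genes, with a pooled SD of 0.82. KO stress arrays had 8.51, 7.74, 8.24, 8.01 and 7.16, and KO con arrays had 9.28, 8.18, 7.76, 7.19 and 8.40. WT stress arrays had 8.58, 8.85, 8.75, 6.52 and 7.14, and WT con arrays had 8.99, 7.81, 7.19, 6.87 and 7.34. All 4 groups overlapped, and the WT stress arrays fell into 3 high and 2 low values. The differences were -0.23 for KO stress vs con (95% interval -1.25 to 0.80, limma p = 0.645, exact permutation p = 0.627) and 0.33 (SE 0.49) for WT stress vs con. This interval was the widest of the 7 genes.

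Rasgrf2 was the only member with a lower mean in WT stress than in WT con. WT stress arrays had 8.42, 9.52, 9.66, 9.18 and 9.33, and WT con arrays had 8.96, 9.58, 9.60, 9.51 and 9.50, a difference of -0.21 (SE 0.19). Without WT stress replicate 1, the array at 8.42, it was -0.01. KO stress averaged 9.61 ± 0.28 and KO con 9.53 ± 0.14, a difference of 0.08 (95% interval -0.32 to 0.48, limma p = 0.684, exact permutation p = 0.595). After stress KO exceeded WT by 0.39 (95% interval -0.01 to 0.79, limma p = 0.0566, adjusted p = 0.53, exact permutation p = 0.159), and by 0.19 without WT stress replicate 1.

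Of the 7 measured genes, 2 had a higher mean in KO stress than in KO con, and 6 without KO con replicate 1, beside 48.5% of all probe sets over all arrays. In WT 6 of the 7 had a higher mean in stress, among them Cnksr2 and Rasl10a, which were chosen for it, beside 62.8% of all probe sets. At an unadjusted p under 0.05, 0 of the 7 were called in KO stress vs con, where 0.827% of all probe sets were called higher and 0.306% lower. The corresponding shares in WT stress vs con were 2.99% higher and 0.556% lower, in the comparison that chose Cnksr2 and Rasl10a. Among the 5 related genes 0 were called in con KO vs WT (1.9% of all probe sets higher, 1.67% lower) and 0 in stress KO vs WT (3.05% higher, 6.23% lower).

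**Figure D2:**
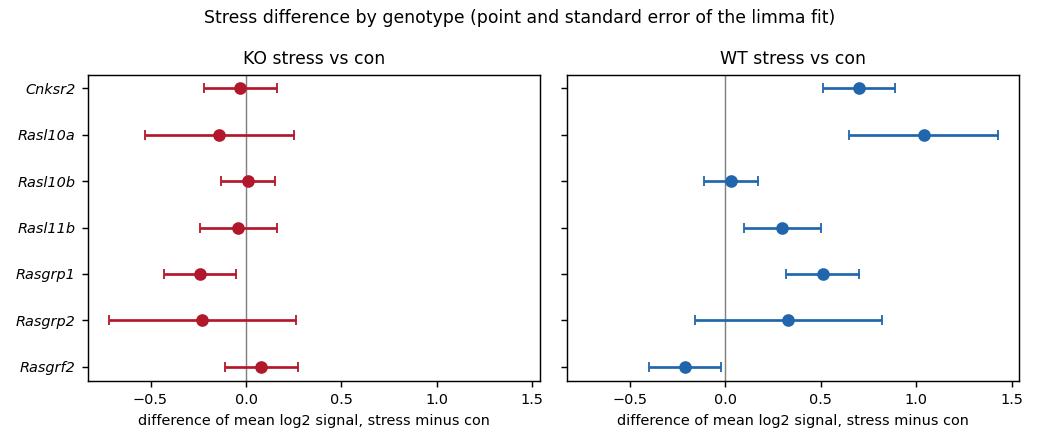
Difference of mean log2 signal, stress minus con (x axis), of the 7 genes (y axis) in KO (left) and WT (right). Points are limma estimates and bars their standard errors. Cnksr2 and Rasl10a lie at 0.70 and 1.04 in WT and at -0.03 and -0.14 in KO.

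KO con replicate 1 was the highest of the 5 KO con arrays for all 7 genes. Its Cnksr2 (11.54), Rasl10a (8.0), Rasgrp1 (11.05), Rasgrp2 (9.28), Rasl10b (8.80), Rasl11b (7.85) and Rasgrf2 (9.77) values enter every KO con mean above. WT con replicate 1 was the highest WT con array for 5 of the 7 genes. Without KO con replicate 1 the KO stress difference was 0.13 for Cnksr2, 0.15 for Rasl11b, 0.09 for Rasl10b, 0.05 for Rasgrp2 and -0.13 for Rasgrp1.

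After the group means were subtracted, the genes varied together in part across the 20 arrays. Of the 21 pairs of members 15 had a positive Pearson r, with a median of 0.34. The highest were Rasl10a with Rasl11b (r = 0.70), and Rasgrp1 with Cnksr2 and with Rasl10a (r = 0.61 each), followed by Cnksr2 with Rasl10a (r = 0.59). Spearman rho was lower for these pairs, at 0.45 for Rasl10a with Rasl11b, 0.50 for Rasgrp1 with each and 0.47 for Cnksr2 with Rasl10a. Rasl10b followed Rasgrp2 (r = 0.57, Spearman rho = 0.62). Rasgrf2 had an r between -0.36 and 0.01 with each of the others. These values describe 20 arrays that share their normalization and come without a test.

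The amygdala block holds several kinds of neuron, and marker scores were set beside the genes. A score is the mean of a list of marker genes, each centred on its mean over the 20 arrays. The pallial excitatory list (11 of 12 genes measured, among them Slc17a7, the vesicular glutamate transporter) was positive in WT stress vs con for 11 of 11 genes, with a median of 0.57, and for 8 of 11 in KO with a median of 0.11. Over all probe sets 62.8% were positive in WT stress vs con and 48.5% in KO stress vs con, with medians of 0.03 and 0.0. Its score ran from -0.64 to 0.52 in KO stress, from -0.67 to 0.73 in KO con, from -0.43 to 1.14 in WT stress and from -0.38 to 0.12 in WT con. The list of striatal and central amygdala neurons (11 of 13 genes, among them Ppp1r1b and Prkcd) had medians of -0.11 for KO stress vs con, 0.28 for WT stress vs con and 0.50 for con KO vs WT. Its score ran from -0.66 to 0.50 in KO stress, from -0.60 to 0.77 in KO con, from -1.13 to 0.68 in WT stress and from -0.82 to 0.84 in WT con. The GABAergic list (8 of 8 genes, among them Gad1) had 0 genes higher and 3 lower at an unadjusted p under 0.05 in WT stress vs con (37.5%, beside 0.556% of all probe sets lower), with a median of -0.04. It had 0 higher and 1 lower in KO stress vs con (12.5%, beside 0.306% of all probe sets lower). In con KO vs WT 7 of its 8 genes were positive, with a median of 0.17, beside 50.1% positive and a median of 0.0 over all probe sets. The GABAergic score ran from -0.28 to 0.20 in KO stress, from -0.09 to 0.33 in KO con, from -0.52 to 0.44 in WT stress and from -0.22 to 0.27 in WT con. The lowest single value in the pallial list was 4.56 (Neurod6, mean 5.73) and in the striatal list 5.4 (Rxrg, mean 7.07). Over all probe sets it was 4.09. The part of these scores in the stress differences of the members was not tested.

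Across arrays within groups, 2 of 35 relations between the 7 genes and 5 scores passed an adjusted p under 0.05. Rasgrp2 followed the striatal and central amygdala score (r = 0.91, permutation p = 3e-05, adjusted p = 0.00105; Spearman rho = 0.91, permutation p = 6e-05, adjusted p = 0.0021). Without the 2 arrays farthest from the median score r was 0.85. Rasl10a followed the pallial excitatory score (r = 0.86, permutation p = 0.00027, adjusted p = 0.00472; Spearman rho = 0.80, permutation p = 0.00108, adjusted p = 0.0189), with r = 0.77 without the 2 farthest arrays. The 3 WT stress arrays high in Rasl10a (replicates 1, 4 and 5) were those with pallial scores of 0.65, 1.14 and 0.95, while replicates 2 and 3 had -0.43 and -0.42. KO con replicate 1, at 8.0 for Rasl10a, had a score of 0.73, the highest of the KO arrays. Without WT stress replicate 1 and WT con replicate 1 the correlations were 0.88 for Rasgrp2 and 0.91 for Rasl10a.

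Cnksr2 and Rasgrp1 were tied less closely to any score. Cnksr2 had r = 0.51 with the striatal and central amygdala score (permutation p = 0.0226, adjusted p = 0.136) and 0.29 with the pallial score (adjusted p = 0.471). Without the 2 arrays farthest in score, the first was 0.77 (adjusted p = 0.0213). In WT stress, Cnksr2 was 11.48 and 11.05 in replicates 4 and 5, the arrays with striatal and central amygdala scores of -1.13 and -0.91, and between 11.08 and 11.41 in the other 3, with scores of 0.58 to 0.68. Rasgrp1 had r = 0.46 with the pallial score (adjusted p = 0.145) and 0.62 without WT stress replicate 1 and WT con replicate 1 (adjusted p = 0.0352). Rasl11b had r = 0.54 with the pallial score (adjusted p = 0.2), and Rasl10b r = 0.53 with the striatal and central amygdala score (adjusted p = 0.136).

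**Figure D3:**
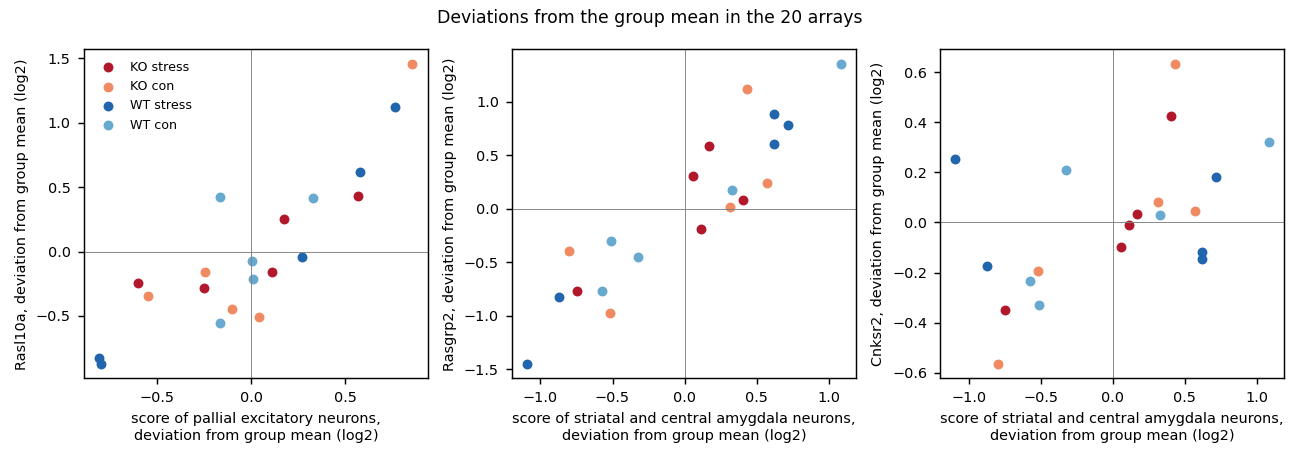
Deviation of a gene from its group mean (y axis, log2) against the deviation of a marker score (x axis, log2) in 20 arrays coloured by group. From left to right, Rasl10a against the pallial score (r = 0.86), Rasgrp2 against the striatal and central amygdala score (r = 0.91) and Cnksr2 against the same score (r = 0.51).

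**Figure D4:**
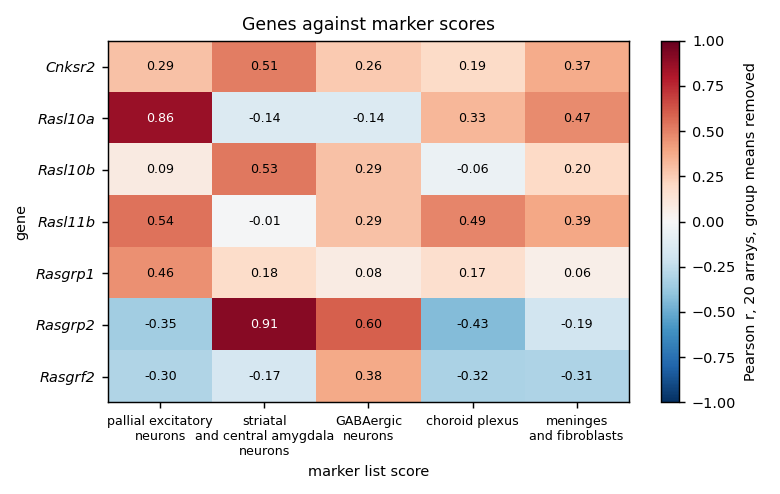
Pearson r over 20 arrays, group means removed, of the 7 genes (rows) with 5 marker scores (columns). The 2 darkest cells are Rasl10a with pallial excitatory neurons and Rasgrp2 with striatal and central amygdala neurons, and Rasgrf2 has no r above 0.38.

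Choroid plexus and meningeal markers had positive differences in KO stress vs con, with medians of 1.19 (9 of 9 positive, 6 at an unadjusted p under 0.05) and 0.88 (10 of 10 positive, 4 at that threshold). Over all probe sets 0.827% were higher at that threshold and 48.5% had a positive difference. Most of these choroid plexus markers, and Slc13a4 and Col1a2, are in the study's own KO stress vs con list. That list comes from the same arrays, so these counts are not independent of it. The choroid plexus score ran from -0.54 to 1.96 in KO stress, -0.80 to -0.46 in KO con, -0.87 to 2.78 in WT stress, -0.51 to -0.07 in WT con. The meningeal score ran from -0.19 to 1.57 in KO stress, -0.73 to 0.16 in KO con, -0.58 to 0.40 in WT stress, -0.48 to 1.18 in WT con. Over the 20 arrays no member had an adjusted p under 0.05 with these 2 scores. Rasl10a had r = 0.47 with the meningeal score (adjusted p = 0.136), 0.71 without the 2 farthest arrays (adjusted p = 0.0337) and 0.53 without WT stress replicate 1 and WT con replicate 1 (adjusted p = 0.0442). Rasl11b had r = 0.39 (adjusted p = 0.196) and 0.48 without WT stress replicate 1 and WT con replicate 1 (adjusted p = 0.0352). Rasgrp1 and Rasgrp2 are also known from T cells and platelets, whose markers were low in this tissue. The T cell genes Cd3e, Cd3d, Cd3g and Cd2 averaged 6.10, 5.10, 5.14 and 5.43, with a median of 0.03 for KO stress vs con and 0.05 for WT stress vs con. The platelet genes Pf4, Ppbp, Gp9 and Itga2b averaged 5.14, 5.31, 5.88 and 6.39, with medians of 0.21 and 0.02 in these comparisons.

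The genes whose within-group pattern was most like that of Cnksr2 were Chrm1 (r = 0.9), the M1 muscarinic receptor gene, Synpo (0.89), for the actin-binding protein synaptopodin, Ano3 (0.88), Slit3 (0.87) and Bcl11b (0.87), over 20 arrays. For Rasl10a they were Mas1 (0.93), Ptgs2 (0.92), which encodes cyclooxygenase-2, Gfod1 (0.91), the NMDA receptor subunit gene Grin2a (0.90) and the sodium-calcium exchanger gene Slc8a2 (0.90). Group differences had been removed before this ranking. In WT stress vs con these 10 genes differed by 0.38 (Slc8a2) to 1.16 (Ptgs2), beside a median of 0.03 over all probe sets. In KO stress vs con they differed by -0.19 (Ano3 and Grin2a) to 0.03 (Mas1), beside a median of 0.0. The 10 were picked for varying with Cnksr2 and Rasl10a, which were chosen on WT stress vs con. Chrm1, Slit3, Grin2a and, by another probe set, Ano3 are also in the study's own WT stress vs con list. That list comes from the same arrays. The WT differences of the 10 are therefore not independent of that choice or of that list. With WT stress replicate 1 left out, 5 of the 10 genes stayed in the ranking.

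Beyond the 8 genes, 102 of 112 genes in 6 Ras pathway lists were measured. In KO stress vs con 1 of the 102 was higher and 0 lower at an unadjusted p under 0.05. The 0.98% higher was near the share of all probe sets (0.827% higher, 0.306% lower), and the median of 0.0 was the same as over all probe sets. In WT stress vs con 7 were higher and 0 lower (6.86%, beside 2.99% of all probe sets), with a median of 0.04 beside 0.03 over all probe sets. None passed the adjusted threshold in any of the 4 comparisons. After quantile normalization or centring on array medians 3 were higher in WT and 0 in KO. When the WT arrays were fitted alone and blocked by replicate number, 6 were higher and 1 lower, and the calls of Rem2, Rapgefl1 and Rap1gap2 named next did not hold. The count of 7 was 3 without WT con replicate 4 and 12 without WT stress replicate 1.

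By class, the WT stress calls were Rem2 of 28 Ras superfamily GTPases, Rasgrp4 and Rapgefl1 of 16 exchange factors, Rap1gap2 of 15 GTPase-activating proteins, Ipcef1 and Spry2 of 20 scaffolds and inhibitors, and Rps6ka3 of 8 genes of the Raf-MEK-ERK cascade. Ipcef1, a partner of exchange factors for Arf GTPases rather than for Ras, averaged 6.80 in WT stress and 6.43 in WT con, a difference of 0.37 (SE 0.12, adjusted p = 1.0), with no overlap of the groups (exact permutation p = 0.00794). Rps6ka3, the ERK-activated kinase RSK2, differed by 0.46 (SE 0.19, adjusted p = 1.0, exact permutation p = 0.0397). Spry2, an inhibitor of receptor tyrosine kinase signalling, differed by 0.25 (exact permutation p = 0.0635). Rapgefl1 differed by 0.40, Rem2 by 0.36, Rap1gap2 by 0.28 and Rasgrp4 by 0.16 (exact permutation p = 0.119, 0.0952, 0.0635 and 0.0238). All were named for their limma p on the same arrays, so the exact p is no independent test. The share of all probe sets without overlap is not given here. The single KO call was Gem, a small GTPase that inhibits calcium channels, at 6.25 in KO stress and 6.02 in KO con (0.23, SE 0.08, limma p = 0.0126, adjusted p = 1.0, exact permutation p = 0.0476).

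In con KO vs WT 6 of the 102 genes were higher and 0 lower (5.88% higher, beside 1.9% of all probe sets higher and 1.67% lower), with a median of 0.05 beside 0.0 over all probe sets. These were Rps6ka3 (0.48), Nkiras1 (0.36), Ipcef1 (0.34), Rap1gap2 (0.31), Rit1 (0.21) and Ralb (0.21), each with an adjusted p of 0.929. Their exact permutation p was 0.0714, 0.0397, 0.0635, 0.0476, 0.0556 and 0.0317 in that order. Ipcef1, Rps6ka3 and Rap1gap2 were called in WT stress vs con as well, and both comparisons use the same WT con arrays. The count was 2 without WT con replicate 5 and 10 without WT stress replicate 1.

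In stress KO vs WT 2 genes were higher (1.96%, beside 3.05% of all probe sets) and 4 lower (3.92%, beside 6.23%), with an adjusted p of 0.53 each. Gem was higher, at 6.25 in KO stress and 5.95 in WT stress (0.29, SE 0.08), without overlap (exact permutation p = 0.00794). The Rap exchange factor gene Rapgef5 was lower, at 8.32 in KO stress and 8.63 in WT stress (-0.30, SE 0.10), as was Spry2, at 8.51 and 8.76 (-0.25, SE 0.11), both without overlap (exact permutation p = 0.00794 for each). Rassf2, which encodes a Ras-binding protein, differed by 0.38, Mknk1, a kinase gene downstream of ERK, by -0.19 and Rasgrp4 by -0.12 (exact permutation p = 0.0873, 0.0476 and 0.0476). Centring on array medians gave 4 higher and 1 lower, and the count of lower genes was 2 without KO stress replicate 1.

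Early genes that ERK signalling can induce, such as Fos, Egr1 and Arc, were not called. Of the 15 measured, 0 reached an unadjusted p under 0.05 in any of the 4 comparisons. In KO stress vs con 13 of the 15 had a positive difference, beside 48.5% of all probe sets, with a median of 0.14 beside 0.0. In WT stress vs con 9 of 15 did, beside 62.8% of all probe sets, with a median of 0.04 beside 0.03. The list holds Nr4a1 but not Nr4a2 or Nr4a3, which the study lists as higher in WT stress. The tissue was lysed within minutes of the stressor, and ERK signalling itself was not tested.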

How the data were processed

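The authors summarized and normalized the intensities of the whole-transcript arrays in ArrayAssist (ExonRMA), followed by variance stabilization, and deposited log2 values for 28767 probe sets, which were used here without further scaling. Arrays (20, in 4 groups of 5) were assigned by their labels. The lowest value was 4.09 and the highest 14.24, and array medians ran from 6.59 to 6.82. For 14.6% of probe sets the mean was under 5, where differences are compressed. The number of arrays limits the precision.

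Probe sets were named from the platform annotation: 21776 have 1 symbol, 1618 several and 5373 none. Of a list gene with several probe sets, the one with the highest mean was used. limma 3.58.1 (R 4.3.3) was fitted on 4 group means with eBayes over all probe sets (16 residual and 2.1 prior degrees of freedom), with Benjamini-Hochberg adjustment. P-values set a difference or a correlation against the spread between mice within groups. No p is given for members in WT stress vs con, nor for Cnksr2 and Rasl10a in comparisons that share WT arrays. Correlations used 100000 permutations within groups, adjusted over 35 relations. The script was tested on simulated data. Promoter windows and figures were handled in Python 3.11.15 (numpy 2.4.6, scipy 1.17.1, matplotlib 3.10.9).

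The members and lists were chosen with earlier results of these data known. Named are all members, up to 4 genes per Ras list and comparison with the smallest p among those with an unadjusted p under 0.05, the 5 genes most like Cnksr2 and Rasl10a, and Slc6a4. Marker genes used to describe the tissue were named beside the rule.

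Arrays are numbered 1 to 5 in each group, and no source says what a shared number means. Same-numbered WT stress and WT con arrays correlated at 0.162 to 0.420 after group means were removed, each over 0.1, and no other pair of groups did so throughout. The same number was the best match in 3 of these 5 pairs, and also in 3 of 5 for KO con with WT con (0.06 to 0.331). A pairing of the WT arrays only was therefore assumed for an alternative fit and is not established. The exact tests do not use this pairing. Alternatives were the methods' t-test, limma on 2 groups, quantile normalization, median centring, a mean filter of 6, array weights, a mean-dependent robust prior in eBayes, a block of replicate numbers and arrays left out.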

Additional observations from a re-analysis of the deposited data

Results flagged for a closer look

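Of 28 gene and group combinations, 4 held an array far from the other 4, where chance gives about 1 in 20 for a single combination. Of the 4, 3 came from 1 array, and the genes vary together in part, so that the combinations are not independent. KO con replicate 1 was the highest array for Rasl10a (8.0, next 6.40), Rasl11b (7.85, next 7.0) and Rasgrf2 (9.77, next 9.52). WT con replicate 1 was the lowest for Rasgrf2 (8.96, next 9.50). The pallial score of KO con replicate 1 was 0.73, the highest of the KO arrays, and its part in these values was not tested.

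The stress difference in KO minus that in WT was -0.75 for Rasgrp1 (n = 20 arrays, limma p = 0.0123, adjusted p = 1.0). It was -0.73 for Cnksr2 and -1.18 for Rasl10a, which were chosen on the WT part of that difference, so that these 2 differences between genotypes were not tested. Rasgrp1 varied with these 2 genes across the arrays, so its p is not independent of that choice.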

How the results depend on the processing

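Of 315 differences of single members recomputed under the alternatives, 294 kept their direction and, where a p was given, their side of the threshold. The t-test, limma on the 2 groups, the mean filter, the robust prior and the blocks leave these differences unchanged by design. Their direction could not turn in those settings, so the count says little about it. With 1 array left out 654 of 700 did so, and an array outside the groups compared could not change a difference either. The differences given without a p, among them all in WT stress vs con, have no side of the threshold to keep. Counts moved more often, by over 1.5 times in 94 of 250 under the alternatives and in 75 of 580 with 1 array left out. The cause of the changes was not tested. Members called in con KO vs WT went to 1 of 5 (Rasgrp1) with array weights and without WT con replicate 1 and WT stress replicate 1, from 0. In stress KO vs WT the count was 1 by the methods' t-test, limma on the 2 groups alone, array weights and both arrays left out (Rasgrp1 each time), 1 with median centring (Rasgrf2) and 2 with quantile normalization (both). Probe sets at an adjusted p under 0.05 in con KO vs WT went from 0 to 1 with the mean filter, 1 with trend and robust settings and 3 with array weights. Relations with marker scores at an adjusted p under 0.05 went from 2 to 4 without the 2 farthest arrays and to 5 without WT con replicate 1 and WT stress replicate 1.

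Under these alternatives signs turned for Rasl10b with median centring (WT stress -0.01, KO stress -0.03, con KO vs WT 0.02), array weights (con KO vs WT 0.04, stress KO vs WT 0.01), quantile normalization (interaction 0.0) and both arrays left out (0.16 and 0.01 in the 2 genotype comparisons), Cnksr2 in KO with quantile normalization (0.01), Rasl11b in KO with array weights (0.05), and with both arrays left out Rasgrf2 in con KO vs WT (-0.01) and Rasgrp2 in stress KO vs WT (0.12).

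With 1 array left out, members higher in WT stress numbered 5 to 6, members called 0 in KO stress vs con, 0 to 1 in con KO vs WT, 0 to 2 in stress KO vs WT and 1 for the interaction. Adjusted calls were 0 in both stress comparisons and the interaction, 0 to 1 in con KO vs WT and 1 in stress KO vs WT. Relations called numbered 2 to 4, and 5 to 10 of the 10 most alike genes stayed. Each range below that crosses 0 holds a sign that turned. In WT stress vs con Cnksr2 stayed at 0.62 to 0.78, Rasl10a at 0.76 to 1.26, Rasgrp1 at 0.39 to 0.64 and Rasl10b at -0.08 to 0.19. In KO stress vs con the ranges were -0.17 to 0.13 for Cnksr2, -0.26 to 0.23 for Rasl10a, -0.13 to 0.15 for Rasl11b, -0.04 to 0.09 for Rasl10b, -0.47 to 0.05 for Rasgrp2 and -0.01 to 0.17 for Rasgrf2. In con KO vs WT they were -0.11 to 0.39 for Rasl10a, -0.11 to 0.16 for Rasl10b and -0.01 to 0.15 for Rasgrf2. In stress KO vs WT they were -0.05 to 0.01 for Rasl10b, -0.22 to 0.03 for Rasl11b and -0.40 to 0.19 for Rasgrp2, and for the interaction of Rasl10b -0.18 to 0.09.

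In a fit of the WT arrays alone with replicate numbers as the block, the WT difference of Cnksr2 was 0.70 (SE 0.14), of Rasl10a 1.04 (SE 0.43) and of Rasgrp1 0.51 (SE 0.26). With the block in all groups the interaction of Rasgrp1 was -0.75 (n = 20 arrays, p = 0.0232). With the block in all groups no call changed in the comparisons where members were given a p. Members were given no p in WT stress vs con, so the fit of the WT arrays alone could not change a call. WT probe sets at an unadjusted p under 0.05 numbered 739 higher and 294 lower with the block in the WT arrays, beside 859 and 160 without it. Quantile normalization gave 572 higher and 509 lower and median centring 414 and 328. The 5 arrays a group limit all values, and the intervals above give what they allow.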
